A study of Mus musculus with 4 samples.

Results

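Binding of CTCF, a zinc-finger factor found at domain borders and the feet of chromatin loops, was mapped with ChIP-seq in testes of B6xCAST F1 mice, with 2 immunoprecipitated (IP) samples and 2 input samples. All 4 samples were unsorted testes of that cross, and no treatment or age is given in the labels. The genes described here control how cohesin is loaded, released and acetylated: Nipbl, Mau2, Wapl, Pds5a, Pds5b, Esco1, Esco2 and Cdca5, 8 of the 21523 protein-coding genes of the autosomes and X. They were chosen by name, not by their CTCF signal, though with earlier results of these data known. A peak was taken for a gene when its summit lay inside the gene or within 50 kb of either end, a stretch called the window below, which gave 50 of the 51871 peaks of the deposited merged list. Each peak carries the authors' fold (a ratio at the summit over background) and −log10 q. There are no values per sample, so no error between animals can be attached to a result, no test was made, and the read depth is unknown.

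Cohesin is a ring-shaped complex that extrudes chromatin loops and holds sister chromatids together. NIPBL and MAU2 form its loader, WAPL and the PDS5 proteins open the ring and release it, the ESCO enzymes acetylate its SMC3 subunit, and sororin, the product of Cdca5, binds acetylated cohesin through PDS5 and counteracts WAPL. CTCF halts extruding cohesin in somatic cells, and in meiotic prophase cohesin builds the axis from which chromatin loops emanate. The series title places the CTCF maps in that setting. Peaks of a whole testis mix meiotic, postmeiotic and somatic cells, which cannot be told apart here.

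CTCF summits were found around each of the 8 genes (8 of 8 windows, against 89.8% of all protein-coding gene windows), but mostly away from the genes' own ends. By position, 13 of the 50 summits lay inside the gene span and 37 in the flanks, and 4 of the 50 were within 1 kb of an end of the gene they were taken for. A summit at an own end was found for 4 of 8 genes, Pds5b, Esco1, Esco2 and Cdca5, where 39.1% of all protein-coding genes had one. Neither loader gene was among them. A summit inside the gene span was found for 7 of 8 genes, all but Mau2, where 53.1% of all protein-coding genes had one. The median length was 59.98 kb for the 8 genes and 17.4 kb for all protein-coding genes, and a longer gene has more room for a summit.

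The members' windows held a median of 5.5 summits, from 3 at Pds5a to 15 at Cdca5, against a median of 5 for all protein-coding genes (quartiles 2 and 8). Nipbl, Pds5b and Esco1 had 6 each, Wapl and Esco2 had 5 each, and Mau2 had 4. Cdca5 stood apart: as many or more summits were found in 2.72% of all protein-coding gene windows. Per 100 kb of window, Cdca5 had 14.1 summits, Esco2 4.35, Esco1 4.16, Mau2 3.12, Wapl 2.85, Pds5b 2.53, Nipbl 2.18 and Pds5a 1.56. The median of all protein-coding gene windows was 3.66, and 3 of the 8 genes, all of the acetylation group, exceeded it. These 3 genes were also short, at 6.68 kb for Cdca5, 14.9 kb for Esco2 and 44.4 kb for Esco1. Mau2 had 28.2 kb, and Wapl, Pds5a, Pds5b and Nipbl had between 75.6 and 175 kb. Whether role or length goes with the density was not tested. Cdca5 also had the most coding neighbours, 13 in its window, where the other 7 genes had 0 to 4.

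By fold, the 50 peaks were near the whole list, while their median −log10 q was lower, 23.6 against 29.5 for all peaks. The median fold of the 50 peaks was 6.81, against 6.82 for all peaks, and their folds ranged between 2.76 and 16.4. Folds of 5 or more were seen in 35 of the 50 peaks (70%, against 71.9% of all peaks) and folds of 10 or more in 10 of them (20%, against 19.6%). By role, the median fold was 6.43 for the 10 peaks of the loading genes, 7.46 for the 14 of the release genes and 6.92 for the 26 of the acetylation genes, and the folds of the 3 groups overlap. Single genes spread more widely, with median folds of 5.53 at Esco1 and 5.56 at Pds5a at the low end and 9.63 at Wapl and 11.9 at Esco2 at the high end. At least 1 summit of fold 10 or more lay in the windows of Nipbl, Mau2, Wapl, Pds5b and Esco2, 5 of 8 genes, against 57.8% of all protein-coding genes.

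**Figure D1:**
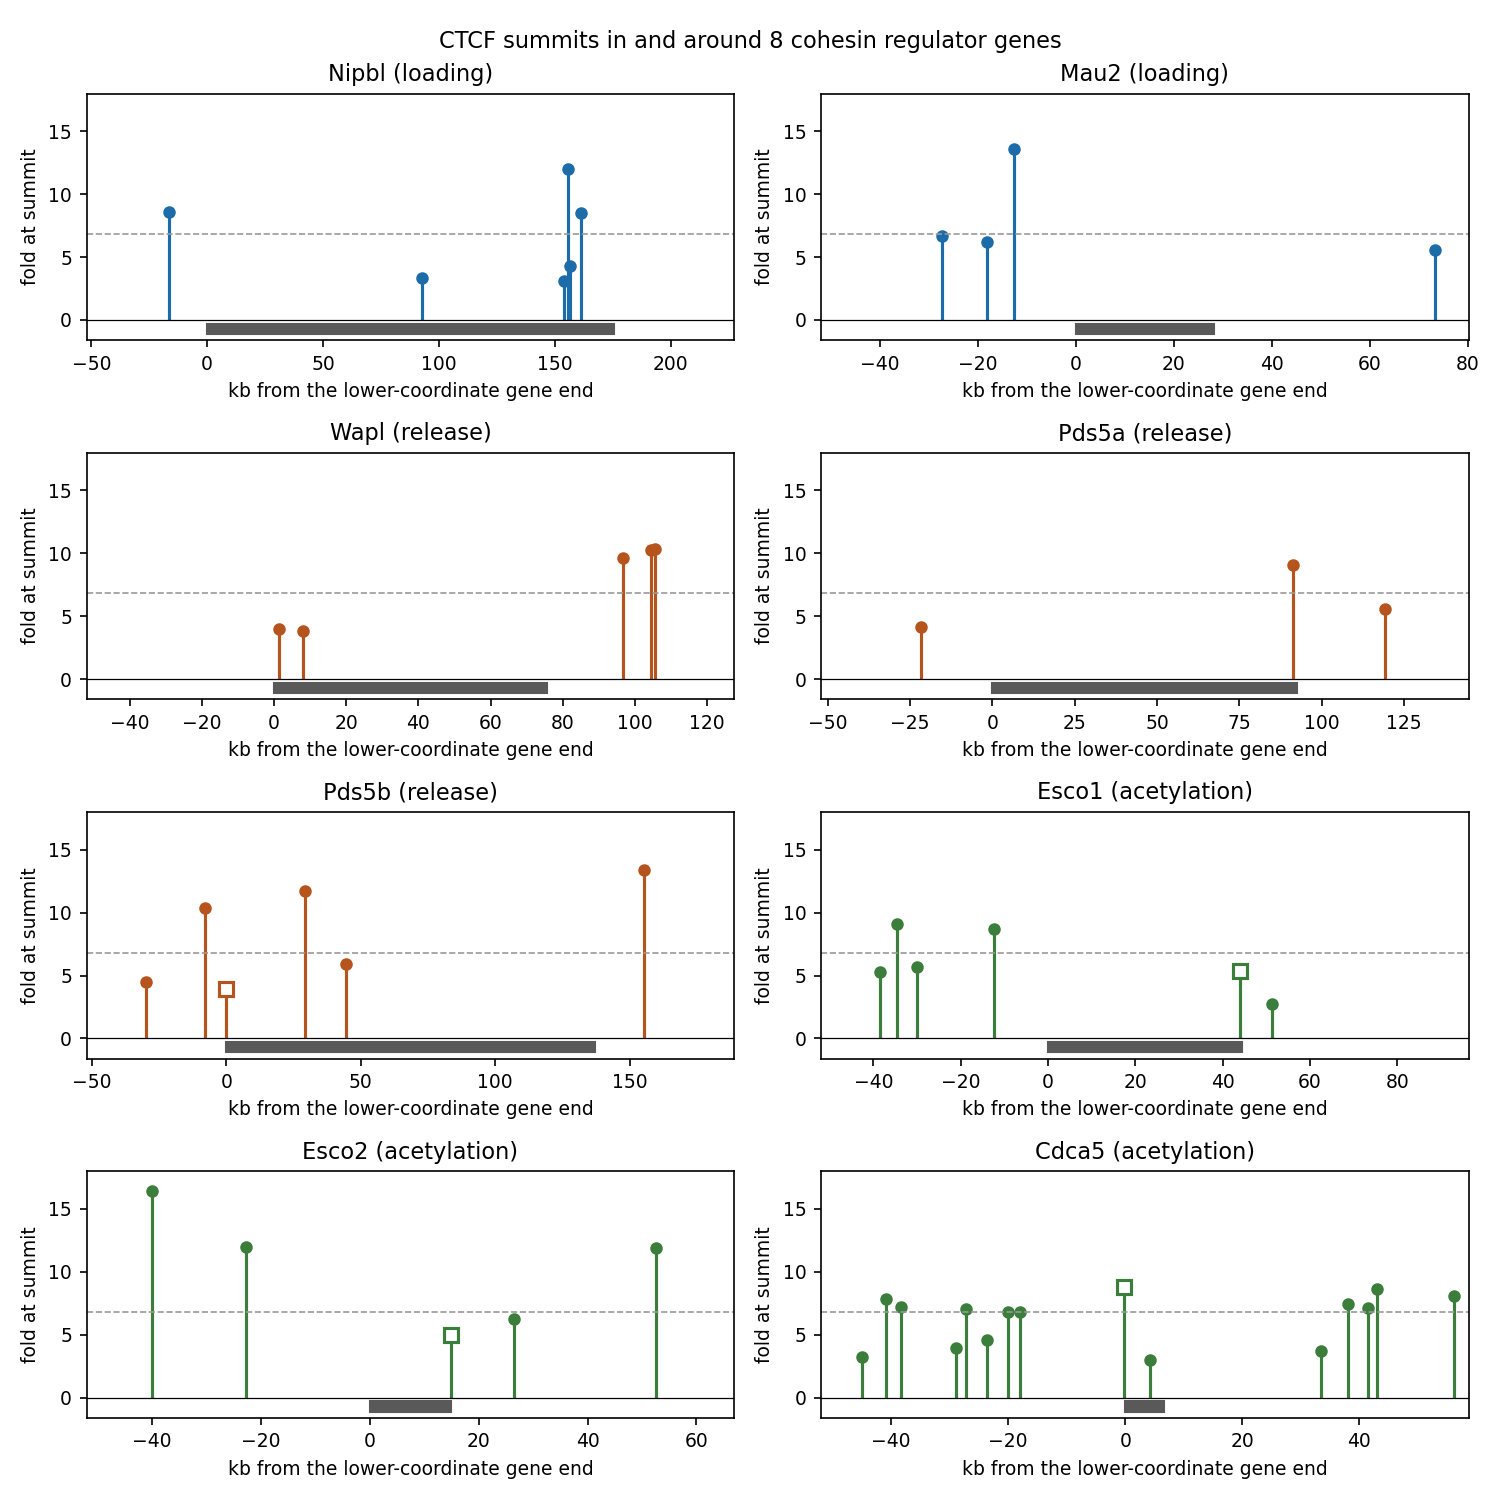
Fold at each CTCF summit (vertical axis) against distance in kb from the lower-coordinate end of the gene (horizontal axis), for the gene (grey bar) and 50 kb on either side. Open squares are summits within 1 kb of an end of the gene, filled circles are other summits, and the dashed line is the median fold of all peaks (6.82). The square is the lowest summit of its window at Pds5b (3.93) and Esco2 (4.98) and the highest at Cdca5 (8.81).

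**Figure D2:**
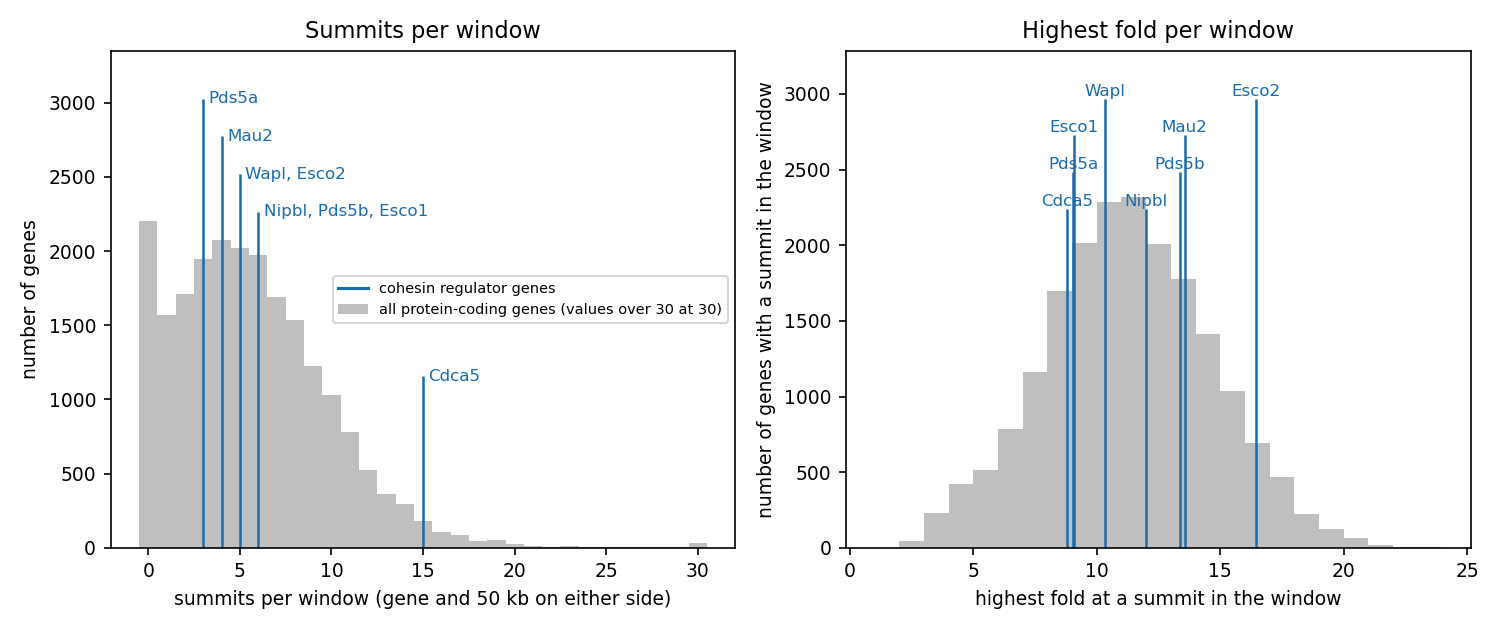
Number of protein-coding genes (vertical axes) by summits per window (left) and by the highest fold in the window (right), with the 8 cohesin regulator genes as blue lines over the grey histogram of all protein-coding genes. Cdca5, with 15 summits, lies far to the right on the left panel but lowest of the 8 on the right panel, where Esco2 is highest with 16.4.

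RefSeq promoter sequences (build GRCm38.p6, the coordinates of mm10) were matched for 5 of the 8 genes, Mau2, Wapl, Pds5a, Pds5b and Cdca5, which also gives the strand of these genes. Nipbl, Esco1 and Esco2 are given by their lower and upper ends instead. Measured from the transcription starts of that table, a summit lay within 1 kb for 3 of the 5 genes, against 37.1% of the protein-coding genes in the table. The distances were 92 bp at Wapl, 129 bp at Cdca5, 145 bp at Pds5b, 1.26 kb at Pds5a and 27.7 kb at Mau2, the last for the nearer of its 2 starts. Wapl changes sides between the measures because its gene span begins upstream of the tabled start, and its summit lies 1457 bp from that outer end. The 300-base promoter itself held the summit at Wapl, Pds5b and Cdca5 (13.1% of all promoters held a summit). A peak also overlapped the promoter of Pds5a, whose summit lay outside it (22.7% of all promoters overlapped a peak), and no peak overlapped either promoter of Mau2.

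The sequences before the starts of the 3 genes with a summit in the promoter, and of Pds5a for comparison with its paralog Pds5b, are printed 5′ to 3′ on the strand of the gene. Runs of 11 capitals are centred on the summit, and the run of 7 capitals at Pds5b is a match to AGGGGGC, the core letters of the CTCF motif. The Pds5b stretch ends where the annotated gene span begins, and the Cdca5 stretch begins 30 bases inside its neighbour Zfpl1.
Wapl, + strand, chr14:34673678-34673927: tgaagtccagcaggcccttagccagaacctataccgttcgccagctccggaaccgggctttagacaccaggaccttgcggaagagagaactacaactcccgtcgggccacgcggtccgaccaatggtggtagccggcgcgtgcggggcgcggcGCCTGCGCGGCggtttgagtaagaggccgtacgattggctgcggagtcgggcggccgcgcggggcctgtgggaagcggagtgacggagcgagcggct
Pds5b, + strand, chr5:150673577-150673712: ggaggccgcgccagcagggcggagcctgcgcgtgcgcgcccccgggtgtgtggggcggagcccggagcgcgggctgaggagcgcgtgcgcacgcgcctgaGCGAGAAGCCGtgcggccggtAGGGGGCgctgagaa
Cdca5, + strand, chr19:6084946-6085096: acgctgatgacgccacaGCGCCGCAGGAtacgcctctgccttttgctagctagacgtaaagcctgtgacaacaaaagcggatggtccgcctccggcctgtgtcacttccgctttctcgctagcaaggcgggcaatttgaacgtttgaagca
Pds5a, − strand, chr5:65698237-65698486: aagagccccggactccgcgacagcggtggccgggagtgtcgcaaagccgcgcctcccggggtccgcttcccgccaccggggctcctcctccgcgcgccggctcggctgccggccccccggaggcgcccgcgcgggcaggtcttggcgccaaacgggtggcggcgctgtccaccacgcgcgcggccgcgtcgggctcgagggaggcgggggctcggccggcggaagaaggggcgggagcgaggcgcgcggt

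The letters AGGGGGC were searched on both strands of the full 300 bases and matched once among the 5 genes, in the Pds5b promoter on the strand of the gene. The centre of the match lay 19 bp from the Pds5b summit. Among all promoters 10.7% held these letters: 22.0% of the 4278 promoters with a summit and 8.97% of the 28341 without. A longer form of the CTCF consensus motif, with any base allowed at its variable positions, matched in none of the members' promoters and in 2.44% of all promoters. Promoters of Wapl and Cdca5 thus held a summit without either pattern in the promoter, which says nothing more than that these letters are not in it. The 250 bases before the start were 80.4% G and C at Pds5a, 75.6% at Pds5b, 67.6% at Wapl, 60.8% at Cdca5, 54.8% at the outer start of Mau2 and 44% at its inner start, against a median of 52.4% over all promoters.

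Both loader genes lacked a summit at either end. At Nipbl, which encodes the large loader subunit (chromosome 15, 8289824 to 8465315), the nearest summits lay 16.6 kb beyond the lower end and 14.1 kb inside the upper end. Of its 6 summits, 4 sat within 7.40 kb of each other in the upper part of the gene, with folds of 3.08, 11.99, 4.29 and 8.48 in order of position. The strongest of them spanned 8444716 to 8445810, had a −log10 q of 59.2 and ranked 4900th of all peaks by fold. Its summit also lay 410 bp from the end of LOC102634078, a predicted protein-coding gene within the Nipbl span, so the CTCF signal there cannot be given to Nipbl alone. The other 2 summits had folds of 8.61, below the gene inside the long noncoding RNA gene Gm52208 and 2.05 kb from the ciliogenesis gene Cplane1, and of 3.35, in mid-gene.

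Mau2, which encodes the loader's smaller partner (chromosome 8, 70014527 to 70042734), was the only one of the 8 genes with no summit inside it. Its 2 tabled starts are read on the minus strand, and the nearest summit to the outer one lay 40.9 kb away. Next to that start begins Sugp1, a splicing factor gene, whose ends also lacked one within 1 kb. Downstream of Mau2, on the low-coordinate side, 3 summits lay toward Gatad2a, a gene of the NuRD chromatin remodelling complex. The nearest, 12.7 kb from Mau2 and 5.44 kb from Gatad2a, had the highest fold of the window, 13.6, with a −log10 q of 54.2 and rank 2572 (peak 70001542 to 70002235). The summit 6 bp from an end of Gatad2a had a fold of 6.16, and the one 9.20 kb inside Gatad2a had 6.70. The single summit upstream of Mau2, of fold 5.54, lay 45.2 kb away inside Hapln4, which encodes a link protein of the extracellular matrix.

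Among the release genes, summits of low fold at the start and of higher fold outside the gene were seen at Wapl and Pds5b but not at Pds5a. Wapl (chromosome 14, 34672379 to 34747983) had its promoter summit at a fold of 4.01 (−log10 q 16.7), and a second internal summit 8.01 kb from the outer end with 3.82. The promoter summit also lay inside the long noncoding RNA gene 5830448L01Rik, so the signal there cannot be given to Wapl alone. Beyond the downstream end of Wapl, 3 summits with folds of 9.63, 10.3 and 10.3 stood within 8.91 kb of each other, 21.2 to 30.1 kb from Wapl. The last pair lay 1.23 kb apart, with −log10 q values of 34.8 and 66.0. Wapl had no protein-coding neighbour in its window, so the coding gene end nearest to each of these 3 summits was that of Wapl itself. All 3 lay inside annotated long noncoding RNA genes, the first in A930038B10Rik and the closely spaced pair in Gm30969.

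Pds5a and Pds5b, paralogs on chromosome 5 whose products bind WAPL, differed in number and place of their summits. Pds5a (65605719 to 65698236) had 3 summits. The strongest, at fold 9.04 and −log10 q 58.0, lay 1256 bp inside the gene, downstream of its start. That peak ran from 65696662 to 65698561, across the start itself. It was 1900 bp wide, the widest of the 50, and 1.303% of all peaks were as wide. The other Pds5a summits had folds of 4.14, inside the ubiquitin-conjugating enzyme gene Ube2k, and 5.56, 26.7 kb upstream of the start.

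Pds5b (150673713 to 150810669) had 6 summits, and the one at its start had the lowest fold. That summit, 31 bp from the end of the gene span, had a fold of 3.93 but a −log10 q of 35.7. It also lay inside Gm40353, a predicted protein-coding gene that overlaps the Pds5b start, so the signal there cannot be given to Pds5b alone. Upstream, at 126 bp from an end of N4bp2l2, stood a summit of fold 10.4. Inside Pds5b, a summit of fold 11.8 stood 124 bp from the end of Gm40353. Both therefore lay at ends of other genes. The highest fold, 13.4 with rank 2790, lay 18.5 kb beyond the downstream end (peak 150828870 to 150829402), with no coding gene end nearer. That summit lay inside the long noncoding RNA gene Gm36447. The remaining summits had folds of 4.49 and 5.88.

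The acetyltransferase genes each had a summit at the upper end and summits of higher fold in the flanks. At Esco1 (chromosome 18, 10566507 to 10610863) the end summit, 440 bp inside the gene, stood at fold 5.37 and −log10 q 52.3 in a peak of 1444 bp. It was the single summit inside the gene. On the lower side, 4 summits of folds 5.27, 9.08, 5.69 and 8.68 lay inside the neighbouring gene Greb1l, 12.4 to 38.5 kb from Esco1. On the upper side, a summit lay 63 bp from an end of Snrpd1, which encodes a core spliceosomal protein. Its fold of 2.76 was the lowest of all 50. Of the Esco1 flank summits, only the one of fold 9.08 had a higher −log10 q than the end summit, 68.8 against 52.3.

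Esco2, the paralog that acts in S phase (chromosome 14, 65819027 to 65833969), had its end summit 16 bp inside the gene, at fold 4.98 and −log10 q 9.81 in a narrow peak of 340 bp. Its flanks held the strongest of the 50 peaks by fold. That summit, 40.0 kb below the gene, had a fold of 16.4, a −log10 q of 84.0 and rank 610 (peak 65778583 to 65779546). The next, 22.8 kb below, had 11.96, and one 37.6 kb above had 11.9. None of these 3 lay within 1 kb of a coding gene end: the nearest were those of the scavenger receptor gene Scara5, the kinase gene Pbk and Ccdc25, at 14.2, 9.64 and 4.96 kb. A summit of fold 6.23 lay inside Ccdc25. A highest fold of 16.4 or more was found for 6.66% of all protein-coding genes with a summit in their window. Esco1, with a highest fold of 9.08, was exceeded or equalled by 74.3% of them.

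Cdca5, the sororin gene (chromosome 19, 6085097 to 6091773), differed from the other 7 genes in that the summit at its start had the highest fold of its window, though 4 other summits there had a higher −log10 q. Its fold was 8.81 and its −log10 q 27.4 (peak 6084767 to 6085181), 129 bp before the start and 7 bp from an end of Zfpl1, a Golgi zinc-finger gene. Both gene ends lie within its peak, so the signal cannot be given to 1 of them. For the other 7 genes the highest-fold summit lay over 1 kb from the gene's own ends, as it did for 93.4% of all protein-coding genes with a summit in their window. The second own summit of Cdca5 was weak, inside the gene at fold 3.0002 and −log10 q 2.52.

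The other 13 Cdca5 summits stood in 2 stretches, 8 of them over 27.0 kb on the lower side and 5 over 22.8 kb on the upper side. Folds were between 3.22 and 8.63, so no summit of the window reached 10. Summits within 1 kb of an end of a protein-coding gene numbered 7 of the 15. Besides Zfpl1, they included summits 108 bp from the small GTPase gene Arl2 (fold 8.06, −log10 q 68.7), 176 bp from the ubiquitin ligase gene Syvn1 (7.21) and 56 bp from the ribosomal protein gene Fau (7.03). Counted over neighbours, 10 of 13 had a summit at an end, but some shared it: Mrpl49 with Fau, Tm7sf2 with Vps51, and Sac3d1 with Snx15.

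Across all 8 windows, 16 of the 50 summits (32%) lay within 1 kb of an end of some protein-coding gene, against 18.5% of the summits in the windows of all protein-coding genes. Without Cdca5 it was 9 of 35 (25.7%), so part of the difference came from that 1 gene-dense window. Of the 27 coding neighbours, 18 had a summit at an end (66.7%), and of the 14 neighbours left without Cdca5, 8 did (57.1%), where 39.1% of all protein-coding genes had one. For Ube2k, Greb1l and Abhd3 that summit lay outside the window of their member gene. A summit near the ends of adjoining genes counts for each of them, both among these neighbours and among all protein-coding genes. The 39.1% covers coding genes with and without a close neighbour. The share among neighbours of all protein-coding genes is not given here. The spacing of summits within the windows had a median of 8.50 kb, from 1.16 kb in Nipbl to 113 kb in Pds5a, against 18.1 kb between neighbouring summits of the autosomes and X. Without Cdca5, which gave 14 of the 42 gaps, the median was 16.2 kb, a value added after the data were seen. Gaps cannot exceed a window, which shortens the first value. The 18.1 kb also covers stretches away from genes. The autosomes and X held 2.01 summits per 100 kb, against a median of 3.66 over protein-coding gene windows. Gaps within the windows of all protein-coding genes are not given here.

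Fold and −log10 q ranked the summits at the genes' own starts or ends differently. At Esco1 the −log10 q of 52.3 compared with a median of 13.3 over the peaks with a fold within 10% of it, and 2.79% of those had a higher one. At Pds5b the values were 35.7 against 6.23, with 3.41% higher, and at Wapl 16.7 against 6.28, with 7.11% higher. Esco1, Pds5b and Wapl thus had summits of low fold but high −log10 q for that fold, in peaks of 1444, 1172 and 854 bp where the median widths at such folds were 374, 264 and 269 bp. Esco2 and Cdca5 did not share this, with −log10 q values of 9.81 against 10.8 and 27.4 against 44.1. The summit at Snrpd1, next to Esco1, behaved like the first 3, with 21.7 against 3.08.

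**Figure D3:**
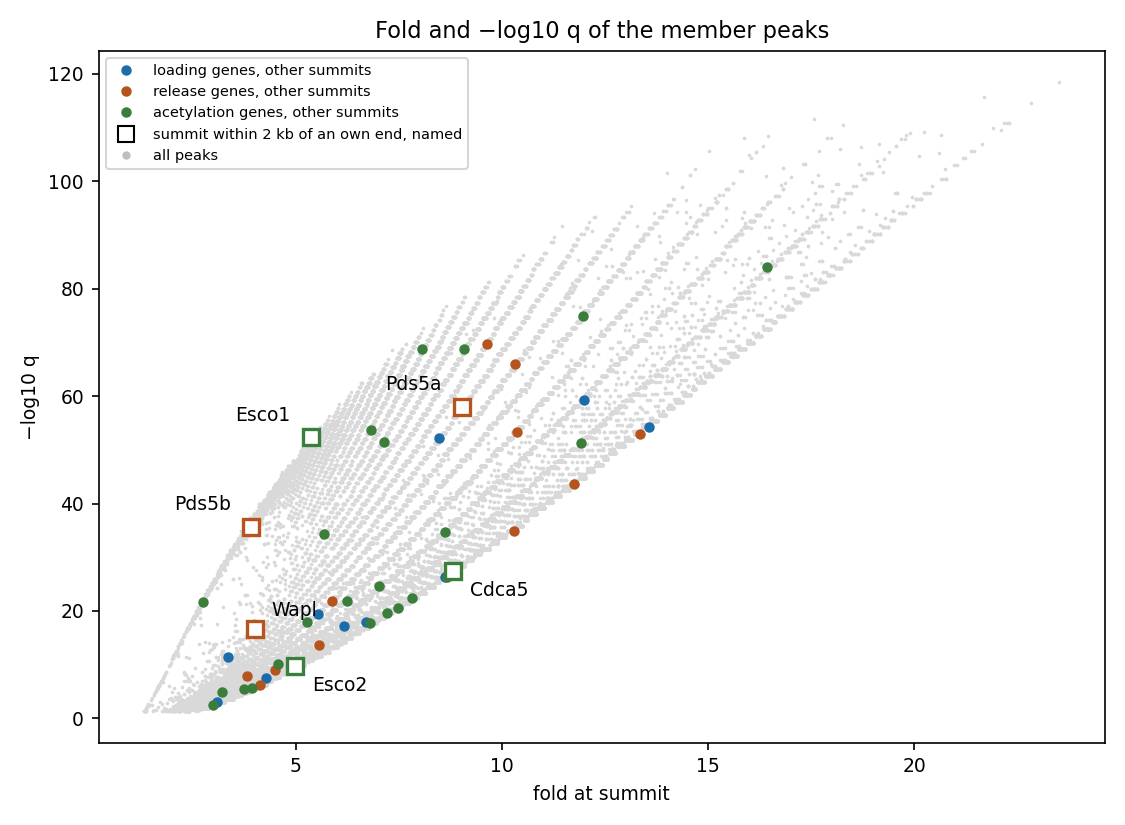
−log10 q (vertical axis) against fold at the summit (horizontal axis) for the peaks of the 8 genes, coloured by role, over all 51871 peaks in grey. Open squares are the named summits within 2 kb of an end of their own gene. Pds5b (3.93, 35.7) and Esco1 (5.37, 52.3) lie toward the upper edge of the grey points. Of peaks with a fold within 10%, 67.7% had a higher −log10 q than Esco2 (4.98, 9.81) and 85.3% than Cdca5 (8.81, 27.4).

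Few summits lay near the limit of 50 kb. Just inside it were the Cdca5 summit at Arl2, 49.5 kb above the gene with a fold of 8.06, and the Mau2 summit at 45.2 kb with 5.54. Just outside lay a summit 51.2 kb below Wapl with a fold of 7.96 and one 54.8 kb above Esco2 with 6.34. Beyond the Wapl limit the same region held a far stronger peak, at 55.4 kb, with a fold of 18.9, a −log10 q of 102 and rank 120 of all peaks, and another of fold 12.6 at 59.97 kb. The highest fold given for Wapl, 10.3, therefore depends on where the window ends.

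The rest of the cohesin pathway was set beside these genes by the same measures. Of the 9 cohesin subunit genes, 4 had a summit within 1 kb of an end (44.4%), led by Stag2 with a fold of 10.004, Smc3 with 9.95 and the meiotic kleisin gene Rec8 with 5.21. Of 16 other genes of the cohesin cycle, 7 did (43.8%), both shares near the 39.1% of all protein-coding genes. The other regulators were led by the replication fork protection gene Timeless with 13.6, the alternative clamp loader gene Chtf18 with 8.45 and the histone kinase gene Haspin with 8.39. The 4 summits at own ends of the loading, release and acetylation genes had folds of 3.93 to 8.81, with a median of 5.18, against a median of 5.87 for all protein-coding genes with such a summit. Summits per window had medians of 5.5 for the 8 genes, 4 for the subunit genes and 6.5 for the other regulators. These shares and medians were not tested against each other.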

How the data were processed

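CTCF was measured by ChIP-seq in 2 IP and 2 input samples of unsorted testis, and 1 merged peak list was used. The submitters' processing notes name BWA 0.7.12, MACS2 2.2.7 and the build mm10 without saying what each did. Peaks are named both bio2 and merged, so which IP samples entered the list is not given in the sources used here, nor is the handling of CAST alleles. Of the authors' deposited values, the fold ratio over background at each summit and the −log10 q were used, within this list only. The authors' score and p were set aside. The read depth is unknown.

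Gene spans came from a RefSeq table of GRCm38.p6, without strand or exons, so exons, introns and UTRs were not told apart. Protein-coding genes of the autosomes and X starting below 3 Mb (108, scaffold coordinates) were left out. Promoters were RefSeq stretches from 250 bases before to 50 after a start. Summits were counted in Python 3.11.15 with pandas 2.3.3 and numpy 2.4.6. Coordinates are 1-based. Counting and motif search were tested on simulated data. The members, the lists and the rule for named genes (all members with their strongest, nearest and gene-end peaks, up to 4 bound neighbours each, and the 3 genes of highest gene-end fold in each other list) were chosen with earlier results of these data known. Alternatives were stricter peak sets, other windows and distances, peak overlap, equal weight per gene and leaving out a gene.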

Additional observations from a re-analysis of the deposited data

How the results depend on the processing

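Of 38 alternatives of the main results, 29 left the value within 1.5 times (for the median fold, within the 95% binomial interval of the median, 5.54 to 8.48) and 9 moved it. Each of the 9 restricts or widens what is counted. The binomial interval treats the 50 peaks as independent, though many share a window, so it served only as a limit for this tally. With folds of at least 5, the median fold of 8.48 lay at its upper limit and was counted as unmoved. With peaks of fold at least 5 (71.9% of all peaks), the genes with a summit at an own end numbered 2 and those with one inside 4, in place of 4 and 7. The shares of all protein-coding genes under the same cut are not given here, and such a cut can only lower them. Keeping only the peaks not below the list's median −log10 q, there were 21 summits in place of 50, at 1.53 per 100 kb in place of 3.64. Their median fold was 9.63, while 2 genes kept a summit at an end and 4 one inside. By definition this cut keeps about 50% of all peaks, so most of the fall in number was fixed in advance. Here too, the shares of all protein-coding genes are not given. Windows of 25 and 100 kb held 29 and 85 summits. Leaving out 1 gene at a time gave 35 (without Cdca5) to 47 (without Pds5a) summits. No window held more than 15 of the 50 summits, so none of these counts could move by 1.5 times. They are among the 29 all the same. No paired analysis was possible because the list does not separate the samples, and for the same reason none of the replicates could be left out. With the depth unknown, a missing summit at Mau2 or Nipbl need not mean missing binding, and weak sites may be unlisted.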

Other observations

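The high −log10 q at low fold of the Esco1 end summit and the Pds5b and Wapl promoter summits was looked for over the whole list, in ranges of fold chosen after those values were seen. Summits were split by whether they lay within 1 kb of an end of a protein-coding gene span. The Wapl summit, 1457 bp from the nearest such end, is therefore counted elsewhere and not at gene ends. At folds of 4 to 5, the 1370 summits at ends of protein-coding genes had a median −log10 q of 9.23 and a 90th percentile of 39.6, against 8.47 and 23.0 for the 5697 summits elsewhere. At folds of 3 to 4, the 90th percentile was 11.96 over 1490 summits at gene ends, against 8.44 over 4237 elsewhere, while both medians were 4.93. Median widths at folds of 3 to 4 were 326 bp at gene ends and 246 bp elsewhere. At folds of 2 to 3, the range of the Snrpd1 summit, the order was the other way, with a 90th percentile of 6.16 over 706 summits at gene ends, against 11.1 over 866 elsewhere. At folds of 5 to 6 the 90th percentiles were 49.7 at gene ends and 49.4 elsewhere. No cause was tested.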
